A study of Mus musculus with 4 samples.

Results

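The genes described here are 34 of the 53465 genes counted in the ventricles of newborn mice. They are members of the ATF4 programme of the integrated stress response, together with serine synthesis and one-carbon enzymes. ATF4 is known to induce several of these enzymes, not each of them. The members are a list of named genes with no threshold on their values, drawn up with earlier results of these data known, and 33 of the 34 passed a filter on low counts. By role, 7 were stress transcription factors, 6 stress effectors and feedback regulators, 3 secreted stress hormones, 3 serine synthesis enzymes, 5 mitochondrial and 2 cytosolic one-carbon enzymes, 5 enzymes of asparagine, proline and transsulfuration, and 3 amino acid transporters.

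Poly(A)-enriched RNA was sequenced from ventricles at postnatal day 1, in 2 control and 2 knockout-labelled libraries. The knockout-labelled mice were Ctnnb1floxP/floxP; alphaMHC-Cre+ and the controls Ctnnb1floxP/floxP; alphaMHC-Cre-, so every library came from mice with floxed Ctnnb1 alleles, and the groups differ in the Cre transgene as well as in the deletion that it drives. The alphaMHC promoter is active in cardiomyocytes, and the other cells of the ventricle would keep β-catenin, the product of Ctnnb1. By its title, the study is about energy metabolism and the function of mitochondria around birth. Whether each sample was a separate animal is not stated in the labels, and the p-values therefore cover the spread among these 4 samples alone. The knockout-labelled libraries differ in sex by Xist and the Y-linked gene Kdm5d, so they are not repeat libraries of 1 animal. Their spread takes in the difference in sex. By the same genes both controls were like knockout-labelled library 1, so the difference between the groups takes in sex as well. The part of sex in the members' differences was not tested. Control 1 held T cell and thymic epithelial genes that control 2 nearly lacked, so the spread between the controls takes in that difference. Whether the controls were separate animals cannot be told from this.

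In the integrated stress response, kinases that sense amino acid shortage, misfolded protein or mitochondrial damage phosphorylate the initiation factor eIF2, which slows translation in general while the mRNA of ATF4 is translated more. ATF4 is a leucine zipper factor that pairs with C/EBP and AP-1 proteins and switches on genes for amino acid import and synthesis, so its protein can rise with little change in its mRNA. In heart muscle with a damaged respiratory chain this programme is known to include mitochondrial folate enzymes, serine synthesis and the circulating hormones FGF21 and GDF15.

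The sequence that ATF4 and C/EBP proteins bind together is written TGATGNAA (TTNCATCA on the other strand), where N is any base. RefSeq promoter windows of GRCm38.p6, from 250 bases before to 50 after a start site, were at hand for 30 members and not for Eif4ebp1, Aldh1l2, Cth and Slc7a5. Searched on both strands, 8 of those 30 genes (26.7%) had a match, against 1219 of 27025 genes (4.51%) in the whole table. The list was drawn up as members of the ATF4 programme, so its larger share is no result of these libraries. A match is a description of letters and not of binding, and the absence of one covers this window only. The matches are shown because they fall on members with very different behaviour in these libraries, with the matching letters in capitals and each sequence read 5′ to 3′ on the strand of its gene. The Trib3 match began 14 bases after the start site and is not shown.

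Asns, chr6:7693214-7693243 (minus strand), first matching base 23 before the start site: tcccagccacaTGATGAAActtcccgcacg
Pycr1, chr11:120643818-120643877 (minus strand), 103 before: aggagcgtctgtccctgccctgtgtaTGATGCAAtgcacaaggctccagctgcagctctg
Atf3, chr1:191183425-191183454 (minus strand), 110 before: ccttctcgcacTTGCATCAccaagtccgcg
Nupr1, chr7:126625562-126625591 (minus strand), 110 before: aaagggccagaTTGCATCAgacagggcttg
Chac1, chr2:119351023-119351082 (plus strand), 193 before: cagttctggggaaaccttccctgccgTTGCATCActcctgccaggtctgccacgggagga
Fgf21, chr7:45615596-45615655 (minus strand), 139 before: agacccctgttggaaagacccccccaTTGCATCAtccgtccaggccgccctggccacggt
Slc7a11, chr3:50443627-50443705 (minus strand), 66 and 47 before: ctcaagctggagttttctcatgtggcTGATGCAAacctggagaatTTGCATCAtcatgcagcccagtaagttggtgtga

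Slc7a11 was the only member with 2 matches in its window, 1 on each strand. Asns and Pycr1 were the only members with a match that DESeq2 called higher in the knockout-labelled libraries. The windows of Psat1, Mthfd2, Shmt1 and Gdf15, which DESeq2 also called, held no match. Atf3, Nupr1, Chac1 and Trib3 were not called by either tool, and Fgf21 was below the filter.

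The libraries held 34027143 to 45651797 reads in genes. Levels are given as CPM, a gene's reads per megaread of its library, scaled by TMM, with the SD of 2 libraries after a mean, and the SE follows each log2 fold change. Control libraries correlated at r = 0.987 across genes, knockout-labelled libraries at 0.981 and libraries of different groups at 0.963 to 0.982. Ctnnb1 was at 409 and 434 CPM in the controls against 527 and 460 CPM in the knockout-labelled pair. Its count covers the whole gene and so does not check the deletion. All 8 cardiomyocyte markers were detected, with summed levels of 50549 to 55334 CPM in the controls and 66974 to 75070 CPM in the knockout-labelled libraries. Of these markers, 4 had both knockout-labelled libraries above both controls, against 26.5% of all genes. The other 4 overlapped, among them Myh7 with a log2 fold change of -1.16 ± 0.71. Several measures set single libraries apart. Control 1 held 247 CPM of 7 T cell markers, against 1.29 to 5.29 CPM elsewhere, and Cd3e was at 0 in knockout-labelled library 1. Control 1 also held genes known from thymic epithelium, picked with their values known, such as Foxn1 at 187 reads against 0 to 2 elsewhere and Krt5 at 918 reads against 0 to 3. Knockout-labelled library 2 was the only one with abundant Xist (602 CPM, against 0.180 to 0.327 CPM) and with Kdm5d at 0, where the others had 37.4 to 42.4 CPM. The share of gene counts from mitochondrial genes was 5.25% and 7.65% in the controls against 10.2% and 14.4% in the knockout-labelled pair, and reads with more than 1 alignment took 19.4% and 21.0% against 23.9% and 29.7%.

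The members did not share 1 pattern. The biosynthetic enzymes Psat1, Mthfd2, Shmt1, Asns and Pycr1 and the transporter Slc7a5 had more RNA in both knockout-labelled libraries than in either control, by 1.71-fold to 3.54-fold in edgeR's estimate. The stress factors and effectors mostly had overlapping groups, with Atf4 itself 0.40 ± 0.18 higher on the log2 scale. In bulk tissue, a change in the number of cells of a type and a change in RNA per cell cannot be told apart. Markers of several other cell types also differed between the groups, where 26.5% of all genes were above both controls and 29.7% below. Of 7 macrophage markers, 5 had both knockout-labelled libraries below both controls and 1, Mrc1, above. Their sums were 200 and 155 CPM against 122 and 155 CPM. DESeq2 called Cd68 and Csf1r lower and Mrc1 higher. Of 7 erythroid markers, 5 were below both controls and 1 above, with sums of 1092 and 1123 CPM against 765 and 662 CPM. Of 7 smooth muscle and pericyte markers, 3 were below both controls, which is near the share over all genes. Acta2, also expressed by immature cardiomyocytes, was above both, at 173 and 332 CPM against 1375 and 1137 CPM. The sums of the fibroblast and endothelial markers overlapped between groups. The part of these cell types in the members' differences was not tested.

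By edgeR's quasi-likelihood test, adjusted over 18157 genes, 0 of 33 members passed an adjusted p of 0.05 in the higher direction and 0 in the lower, where 0.011% of all genes were called higher and 0% lower. Without adjustment, 10 members were higher and 1 lower at a p under 0.05, against 11.8% and 11.2% of all genes. DESeq2, the tool named in the submitters' notes, called 7 of 33 members higher and 0 lower (21.2% and 0%), against 5.58% and 4.43% of the genes it tested. The authors' deposited table, also from DESeq2, likewise held 7 members higher and 0 lower at that threshold. In 13 members both knockout-labelled libraries exceeded both controls, and in 1 both were below, against 26.5% and 29.7% of all genes. The median log2 fold change was 0.29 over the 33 members and -0.02 over all genes tested, and 22 of 33 members were above 0.

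The DESeq2 calls changed when any 1 library was left out. Such a fit has a single library in 1 group, so a lower count alone does not show that the calls rest on the library left out. Without knockout-labelled library 2, DESeq2 called 1 member, Psat1, where it called 575 genes higher and 583 lower in all. Without knockout-labelled library 1 it called 7 members higher and 1 lower (1369 and 1085 of all genes), and 5 of those 7 were among the calls from all 4 libraries. It called 0 members without control 1 and 0 without control 2, where 104 and 197 genes in all were called higher and 53 and 324 lower, so the calls over all genes were also fewer than the 951 and 755 from all 4 libraries.

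**Figure D1:**
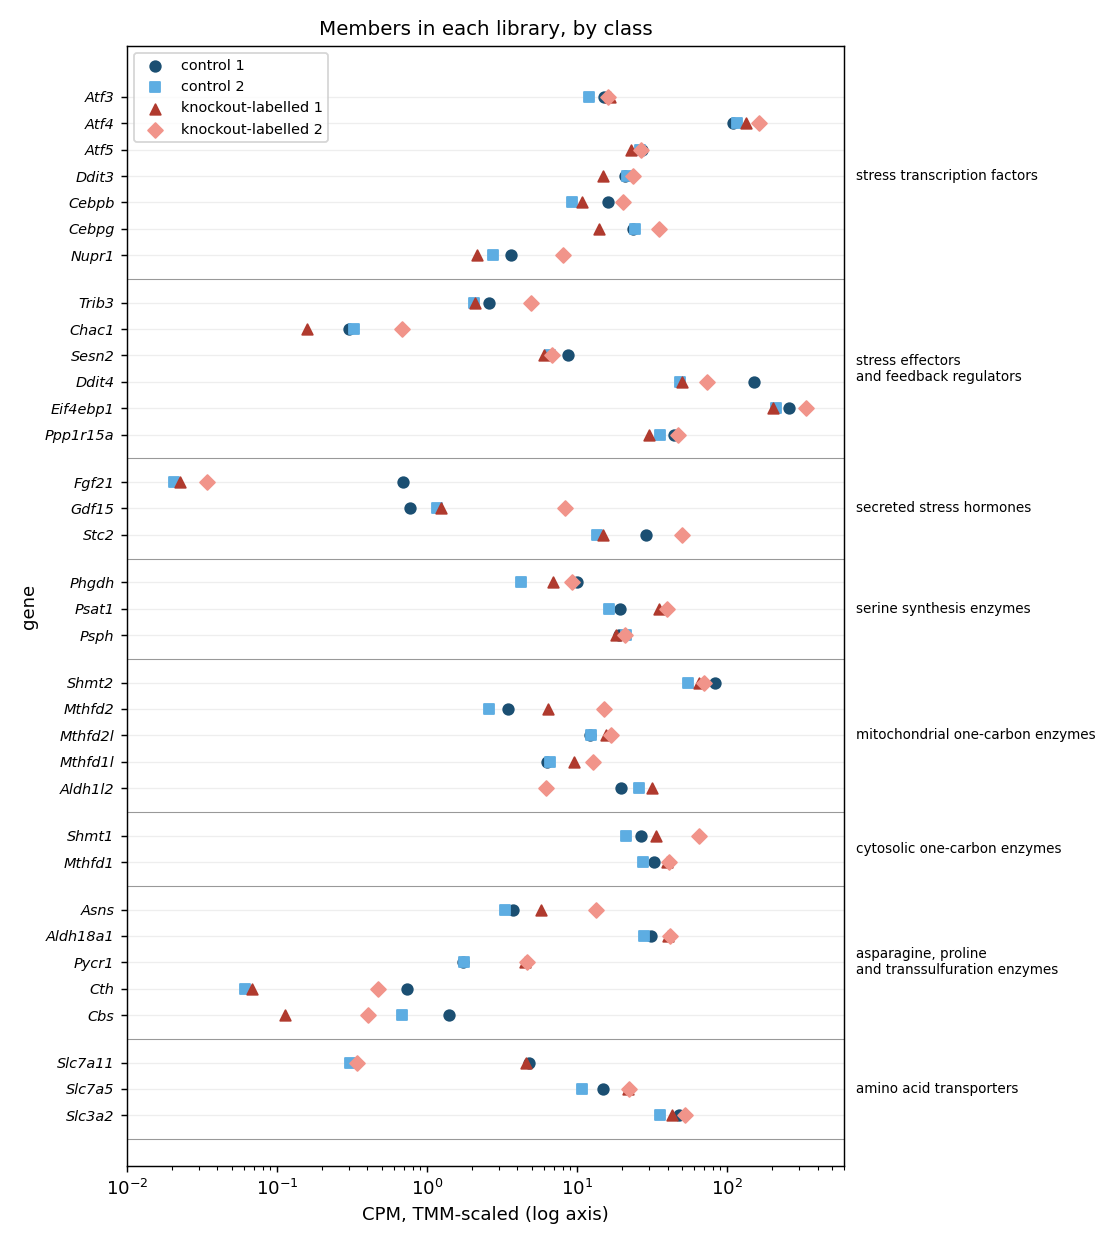
Level of each of the 34 members in the 4 libraries, in TMM-scaled CPM on a log axis, grouped by role; each symbol is 1 library. Psat1, Mthfd2 and Pycr1 have both knockout-labelled libraries to the right of both controls, Slc7a11 splits by replicate number, and Fgf21 is above 1 read only in control 1.

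The serine pathway makes serine from the glycolytic intermediate 3-phosphoglycerate in 3 steps, and only its middle enzyme was called by DESeq2. Psat1 (ENSMUSG00000024640.9, chr19:15904678-15947337 on GRCm38, minus strand), the phosphoserine aminotransferase, was at 19.3 and 16.4 CPM in the controls against 34.8 and 39.7 CPM in the knockout-labelled pair. Neither control came near the knockout-labelled libraries, and the gap between the groups was wider than the spread within either. The means were 17.8 ± 2.04 and 37.3 ± 3.41 CPM, a 2.09-fold difference with a log2 fold change of 1.06 ± 0.18 (adjusted p = 0.0925 with edgeR, 0.000381 with DESeq2). It stayed within 0.96 to 1.21 when any 1 library was left out.

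Phgdh, the dehydrogenase that commits 3-phosphoglycerate to serine, was at 10.04 and 4.19 CPM in the controls against 6.88 and 9.23 CPM in the knockout-labelled pair. The controls enclosed both knockout-labelled values. Its log2 fold change was 0.18 ± 0.45 (adjusted p = 0.844 with edgeR), and it was 0.94 without control 1 and -0.31 without control 2. Phgdh has many processed pseudogenes, the closest at 98.7% identity, so its count is uncertain.

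Psph, the phosphatase that completes the pathway, was at 19.1 and 21.0 CPM against 18.1 and 20.7 CPM, with a log2 fold change of -0.05 ± 0.19 (adjusted p = 0.902 with edgeR). The groups overlapped, and 452 of its bases are shared with Cct6a on the other strand. Per length, as scaled CPM divided by exon length in kilobases (RPKM), the ratio of Psat1 to Psph was 1.03 and 0.793 in the controls against 1.96 and 1.95 in the knockout-labelled pair. The ratio of Psat1 to Phgdh was 1.12 and 2.29 against 2.96 and 2.51, also without overlap but with a wide spread between the controls.

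In mitochondria, serine is split by SHMT2 and its carbon is carried through MTHFD2 or MTHFD2L and MTHFD1L to formate. Mthfd2 (ENSMUSG00000005667.8, chr6:83305691-83325908, minus strand), the dehydrogenase and cyclohydrolase that is prominent in embryonic and dividing cells, was at 3.45 and 2.58 CPM in the controls against 6.36 and 15.0 CPM in the knockout-labelled pair. Both knockout-labelled libraries were above both controls, and the second was far above the first. Means of 3.01 ± 0.620 and 10.7 ± 6.12 CPM gave a 3.54-fold difference and a log2 fold change of 1.82 ± 0.47 (adjusted p = 0.113 with edgeR, 0.00305 with DESeq2), which was 1.09 without knockout-labelled library 2.

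Mthfd1l, the mitochondrial formate synthetase, was at 6.33 and 6.54 CPM in the controls against 9.54 and 12.8 CPM in the knockout-labelled pair. The controls lay close together and below both. The log2 fold change was 0.79 ± 0.27 (adjusted p = 0.160 with edgeR, 0.0679 with DESeq2). Mthfd2l, the isoenzyme of Mthfd2 found in adult tissue, was at 12.1 and 12.3 CPM against 15.5 and 16.9 CPM, again without overlap, at 0.40 ± 0.20 (adjusted p = 0.292 with edgeR). Per length, Mthfd2 was at 0.543 and 0.398 of the Mthfd2l level in the controls against 0.783 and 1.69 in the knockout-labelled pair. The order of the genes in knockout-labelled library 2 rests on exon lengths of 3487 bases for Mthfd2 and 6645 for Mthfd2l. In CPM, Mthfd2l was higher than Mthfd2 in every library. The longest coding transcript of Mthfd2l has 2159 bases, so which gene had more transcripts there is uncertain.

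Shmt2, the mitochondrial serine hydroxymethyltransferase that feeds these steps, was the most abundant enzyme of the class and overlapped, at 83.3 and 54.8 CPM against 64.6 and 69.9 CPM (log2 fold change -0.04 ± 0.23, adjusted p = 0.938 with edgeR). It lies across Ndufa4l2 on the other strand. Aldh1l2, which oxidises formyl-tetrahydrofolate in mitochondria, was at 19.7 and 25.6 CPM in the controls, 31.7 CPM in knockout-labelled library 1 and 6.22 CPM in library 2. The knockout-labelled libraries thus held both its highest and its lowest value. Its log2 fold change was -0.25 ± 0.67 (adjusted p = 0.852 with edgeR), 0.49 without knockout-labelled library 2 and -1.81 without library 1. Aldh1l2 shares 1056 transcript bases with the opposite-strand gene D10Wsu102e, counted at 1298 and 1141 reads in the controls against 1151 and 583 in the knockout-labelled pair.

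Over the 5 mitochondrial one-carbon enzymes, 3 had both knockout-labelled libraries above both controls and 2 overlapped, with a median log2 fold change of 0.40. Their summed level was 125 and 102 CPM in the controls against 128 and 121 CPM in the knockout-labelled pair, so the sum overlapped between groups. Shmt2 made up most of it.

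The cytosolic counterparts were both higher in both knockout-labelled libraries. Shmt1, the cytosolic serine hydroxymethyltransferase, was at 26.4 and 21.1 CPM in the controls against 33.3 and 64.9 CPM in the knockout-labelled pair. Knockout-labelled library 2 stood far above the others, and library 1 was nearer to control 1 than to library 2. The means were 23.8 ± 3.77 and 49.1 ± 22.3 CPM, 2.06-fold apart, with a log2 fold change of 1.05 ± 0.33 (adjusted p = 0.148 with edgeR, 0.0341 with DESeq2) that was 0.50 without knockout-labelled library 2. Mthfd1, the trifunctional enzyme that takes up formate in the cytosol, was at 32.7 and 27.4 CPM against 39.6 and 41.0 CPM (log2 fold change 0.42 ± 0.17, adjusted p = 0.209 with edgeR). The ratio of Shmt2 to Shmt1 per length was 3.93 and 3.24 in the controls against 2.42 and 1.34 in the knockout-labelled pair, with no overlap.

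One-carbon enzymes also serve nucleotide synthesis in dividing cells, and all 10 markers of proliferating cells measured here had both knockout-labelled libraries above both controls, with sums of 235 and 295 CPM against 566 and 646 CPM. DESeq2 called 8 of these 10 higher. The part of these markers in the enzyme differences was not tested.

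**Figure D2:**
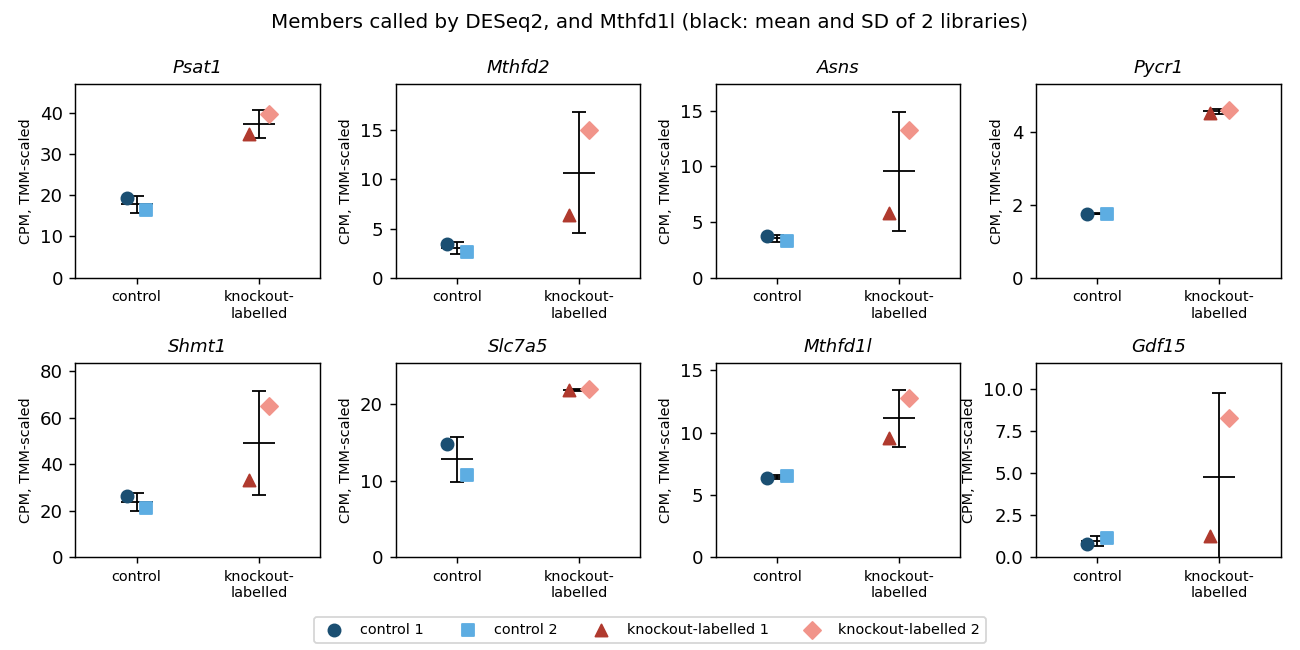
TMM-scaled CPM (linear axes from 0) of the 7 members that DESeq2 called, and of Mthfd1l, in each library; black bars are the mean and SD of 2 libraries. Psat1, Pycr1 and Slc7a5 have knockout-labelled libraries close together, while for Mthfd2, Asns, Shmt1 and Gdf15 library 2 stands above library 1; the lower SD bar of Gdf15 runs below 0 and ends at the axis.

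Outside folate metabolism, asparagine and proline synthesis shared this direction and transsulfuration did not. Asns (ENSMUSG00000029752.12, chr6:7675169-7693254, minus strand), the asparagine synthetase whose promoter carries the first sequence shown above, was at 3.75 and 3.31 CPM in the controls against 5.77 and 13.3 CPM in the knockout-labelled pair. Both exceeded both controls, library 2 by much more than library 1. Means of 3.53 ± 0.312 and 9.53 ± 5.32 CPM gave a 2.69-fold difference and a log2 fold change of 1.43 ± 0.44 (adjusted p = 0.142 with edgeR, 0.0225 with DESeq2), and this was 0.72 without knockout-labelled library 2.

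Pycr1 (ENSMUSG00000025140.15, chr11:120635712-120643769, minus strand), the mitochondrial reductase of the last step to proline, was at 1.74 and 1.76 CPM in the controls against 4.51 and 4.60 CPM in the knockout-labelled pair. The replicates of each group nearly coincided, which no other called member showed in both groups. The means were 1.75 ± 0.0146 and 4.56 ± 0.0625 CPM, 2.60-fold apart, with a log2 fold change of 1.38 ± 0.31 (adjusted p = 0.0981 with edgeR, 0.00636 with DESeq2) that stayed within 1.37 to 1.45 when any 1 library was left out. Psat1 and Pycr1 were the 2 members at an adjusted p under 0.1 with edgeR, a level reached by 2.83% of all genes in the higher direction.

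Aldh18a1, which makes the precursor of proline, was at 30.9 and 27.8 CPM against 40.2 and 41.7 CPM, also without overlap (log2 fold change 0.48 ± 0.16, adjusted p = 0.156 with edgeR, 0.125 with DESeq2). The transsulfuration enzymes, which turn homocysteine and serine into cysteine, had few reads. Cbs, the first of them, had 65 and 33 reads in the controls against 5 and 12 in the knockout-labelled pair. It was the only member with both knockout-labelled libraries below both controls, at a log2 fold change of -2.06 ± 0.71 (adjusted p = 0.165 with edgeR, 0.186 with DESeq2).

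Cth, the second enzyme, had 34 and 3 reads in the controls against 3 and 14 in the knockout-labelled pair. It was high in control 1, and the groups overlapped (log2 fold change -0.64 ± 1.22, edgeR). Control 1 is also the library with the T cell and thymic epithelial genes, and their part in the values of Cth was not tested.

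The transporters bring in the amino acids that the programme does not make. Slc7a5, the light chain of the LAT1 exchanger for large neutral amino acids, was at 14.8 and 10.7 CPM in the controls against 21.8 and 22.0 CPM in the knockout-labelled pair. Both knockout-labelled values lay above the higher control. The means were 12.8 ± 2.91 and 21.9 ± 0.145 CPM, 1.71-fold apart, with a log2 fold change of 0.78 ± 0.23 (adjusted p = 0.136 with edgeR, 0.0424 with DESeq2). Slc3a2, the heavy chain that LAT1 and xCT share, overlapped at 47.4 and 35.9 CPM against 42.7 and 51.9 CPM (log2 fold change 0.18 ± 0.20, adjusted p = 0.626 with edgeR). Per length, the ratio of Slc3a2 to Slc7a5 was 3.36 and 3.51 in the controls against 2.06 and 2.48 in the knockout-labelled pair.

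Slc7a11, the light chain of the cystine importer xCT, divided the libraries by replicate number and not by group, with 223 and 15 reads in the controls against 202 and 10 in the knockout-labelled pair. The first replicate of each group was high and the second low, at 4.78, 0.307, 4.56 and 0.338 CPM, and the log2 fold change was -0.04 ± 1.38 (adjusted p = 0.992 with edgeR). Its longest transcript shares 482 bases at 92.9% identity with the pseudogene Gm14150, which split in the same way, at 173 and 7 reads in the controls against 315 and 15 in the knockout-labelled pair. Among other similar genes, the pseudogene Gm3226 (91.9% identity) was also lower in each second replicate, at 19 and 4 reads against 90 and 15. So was Gm6682 (93.6%), at 48 and 14 reads against 91 and 32. The pseudogene Gm17383 (92.9%) did not split this way in both groups, at 19 and 21 reads against 31 and 18. Nor did the tubulin gene Tuba1a (93.4%), at 4447 and 7250 reads against 9932 and 9283. These genes were picked with their values known.

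**Figure D3:**
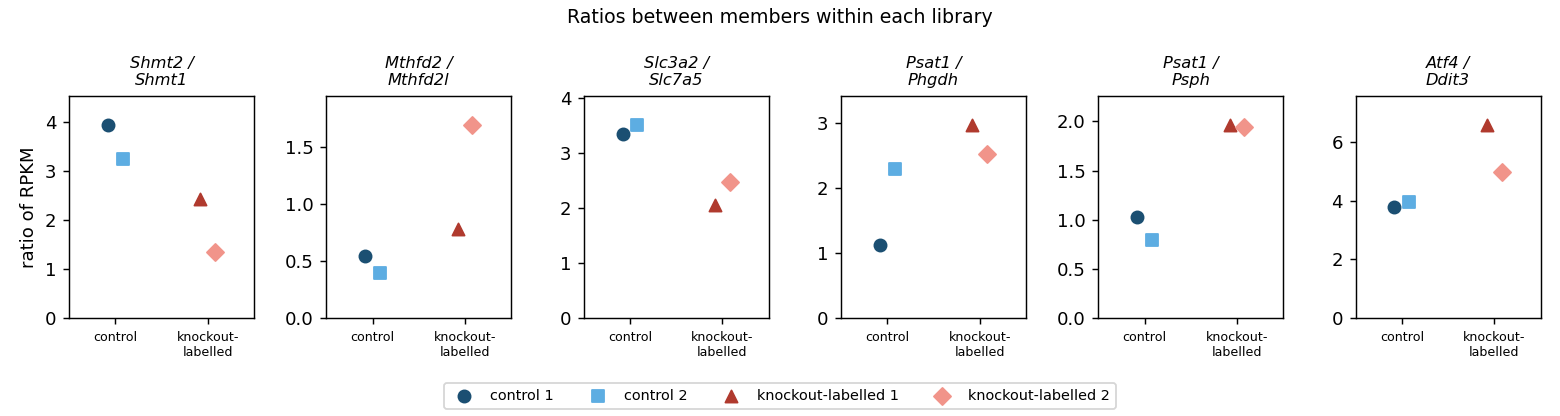
Ratios of RPKM between pairs of members within each library, on linear axes from 0; each symbol is 1 library. In all 6 ratios drawn the groups do not overlap, with Shmt2 over Shmt1 and Slc3a2 over Slc7a5 lower in the knockout-labelled libraries and the other 4 higher.

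These 6 ratios were chosen with the members' values known, and 2 libraries against 2 cannot give an exact permutation p under 0.05, so they have no test.

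The stress transcription factors had a median log2 fold change of 0.27, with 2 of 7 above both controls, 0 below and 5 overlapping, and DESeq2 called 0 of the 7. Atf4 (ENSMUSG00000042406.7, chr15:80255184-80257541, plus strand), the factor that names the programme, was at 109 and 116 CPM in the controls against 134 and 162 CPM in the knockout-labelled pair. The groups did not overlap, and the knockout-labelled libraries differed from each other by more than library 1 differed from control 2. The means were 112 ± 5.08 and 148 ± 19.7 CPM, with a log2 fold change of 0.40 ± 0.18 (adjusted p = 0.248 with edgeR, 0.230 with DESeq2). Atf3, an early stress factor, was at 15.1 and 11.9 CPM against 16.5 and 16.0 CPM, at 0.27 ± 0.22 (adjusted p = 0.511 with edgeR).

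Ddit3 encodes CHOP, the factor tied to cell death in prolonged stress. It was at 20.8 and 21.3 CPM in the controls against 14.8 and 23.7 CPM in the knockout-labelled pair, which enclosed the controls (log2 fold change -0.13 ± 0.26, adjusted p = 0.797 with edgeR). It overlaps Mars on the other strand and, on its own strand, another protein-coding entry also named Ddit3. The entry with the most reads was used, so the Ddit3 count is uncertain. The ratio of Atf4 to Ddit3 per length was 3.79 and 3.94 in the controls against 6.56 and 4.95 in the knockout-labelled pair.

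Atf5, which is known for its part in the mitochondrial stress response, was at 26.9 and 26.1 CPM against 22.7 and 26.8 CPM (log2 fold change -0.10 ± 0.18). Cebpg, a partner of ATF4, was at 23.4 and 24.2 CPM in the controls, 14.0 CPM in knockout-labelled library 1 and 34.9 CPM in library 2. Cebpb, another partner, was at 16.0 and 9.30 CPM against 10.7 and 20.3 CPM, and the small chromatin protein gene Nupr1 at 3.60 and 2.74 CPM against 2.14 and 8.02 CPM. For Cebpg and Nupr1 the knockout-labelled libraries lay on either side of both controls, library 1 below and library 2 above. The log2 fold changes were 0.04 ± 0.41 for Cebpg, 0.29 ± 0.40 for Cebpb and 0.67 ± 0.62 for Nupr1, with adjusted p of 0.969, 0.709 and 0.554 (edgeR).

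All 6 effectors and feedback regulators overlapped between groups, with a median log2 fold change of 0.07. Trib3, the pseudokinase that restrains ATF4, was at 2.59 and 2.06 CPM against 2.08 and 4.90 CPM. Chac1, which degrades glutathione, had 14 and 16 reads in the controls against 7 and 20 in the knockout-labelled pair. Eif4ebp1, the brake on cap-dependent translation, was the highest member per length, at 258 and 210 CPM against 203 and 333 CPM.

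In these 3 genes library 2 was the highest of all, while library 1 was the lowest for Chac1 and Eif4ebp1 and just above control 2 for Trib3. Ppp1r15a, the phosphatase subunit that reverses eIF2 phosphorylation, was at 44.4 and 35.8 CPM against 30.3 and 47.0 CPM. Sesn2, a leucine sensor upstream of mTORC1, was at 8.64 and 6.58 CPM against 6.02 and 6.76 CPM. Ddit4, an mTORC1 inhibitor also known as a hypoxia gene, was at 152 and 48.4 CPM in the controls against 50.3 and 72.8 CPM in the knockout-labelled pair.

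Ddit4 was high in control 1 alone. Its log2 fold change was -0.70 ± 0.51 (adjusted p = 0.455 with edgeR), and without control 1 it was 0.35. Control 1 is the library with the T cell and thymic epithelial genes, and their part in its Ddit4 level was not tested. The sum of 10 hypoxia genes was 1561 and 1392 CPM in the controls against 1850 and 2521 CPM in the knockout-labelled pair. Of these genes, 4 were above both controls and 1 below, against 26.5% and 29.7% of all genes. The 1 below was Vegfa, at 473 and 434 CPM against 264 and 370 CPM. The part of hypoxia in the Ddit4 level was not tested.

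Of the hormones through which stressed cells signal to other organs, Gdf15 and Fgf21 were each high in 1 library. Gdf15 (ENSMUSG00000038508.7), the stress cytokine that acts on appetite, was at 0.772 and 1.16 CPM in the controls, 1.24 CPM in knockout-labelled library 1 and 8.29 CPM in library 2. Library 1 was close to control 2, and library 2 stood far above the rest. The log2 fold change was 2.28 ± 0.87 (adjusted p = 0.192 with edgeR, 0.0395 with DESeq2), and 0.36 without library 2. Stc2, a secreted glycoprotein, overlapped at 28.6 and 13.5 CPM against 14.9 and 49.6 CPM (log2 fold change 0.61 ± 0.60, adjusted p = 0.581 with edgeR).

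Fgf21, the fasting and mitochondrial stress hormone, had 32 reads in control 1 and 1 read in each other library and was not tested. All but control 1 were below the 3 reads that a count of 0 would allow. The part of the T cell and thymic epithelial genes of control 1 in this value was not tested.

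**Figure D4:**
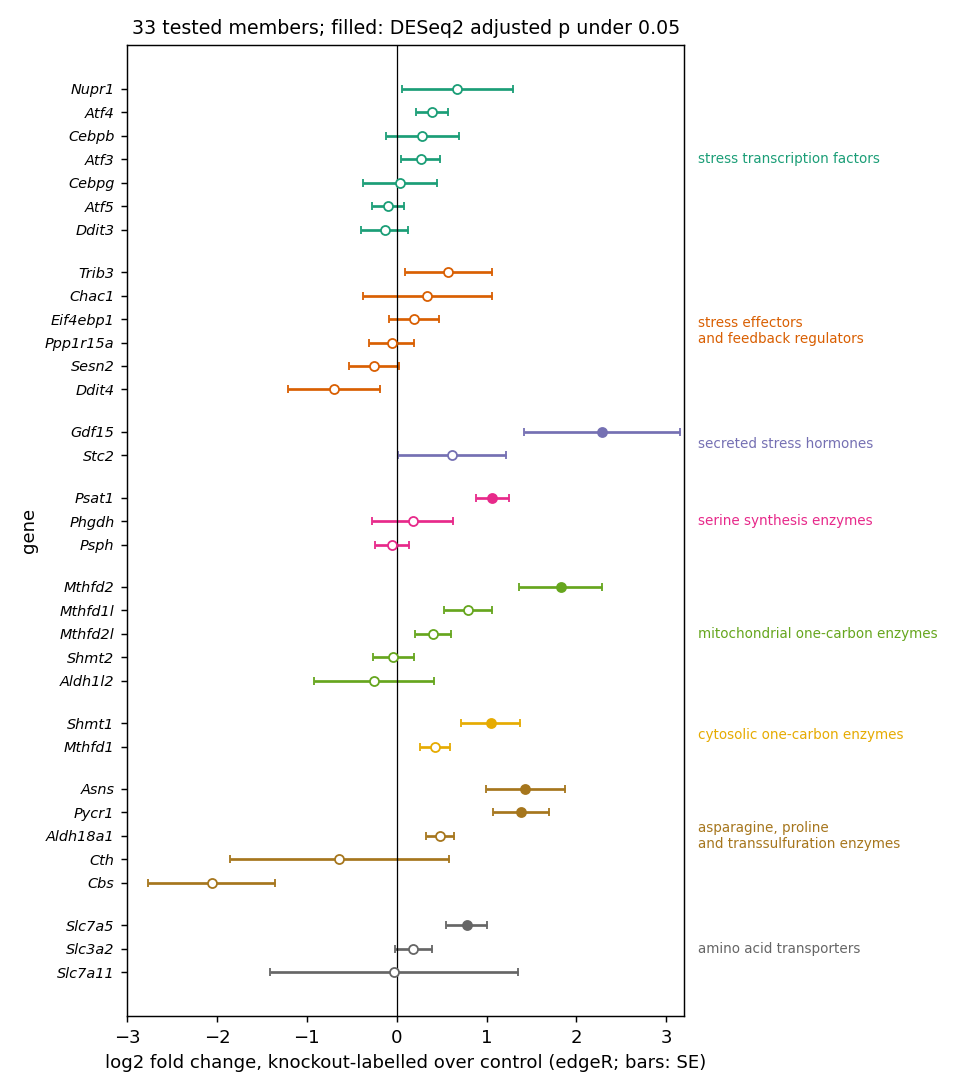
edgeR log2 fold change of knockout-labelled over control for the 33 tested members, by role, with bars of 1 SE; filled points had a DESeq2 adjusted p under 0.05. Filled points lie among the biosynthetic enzymes, Slc7a5 and Gdf15, and none lies among the stress transcription factors or the effectors.

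The classes were not compared by a test. By counts, DESeq2 called 6 of the 18 enzymes and transporters higher and 0 of the 13 stress factors and effectors, with Gdf15 as the remaining call, against 5.58% of all genes. At that share a count of 0 among 13 does not stand apart from the background.

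Knockout-labelled library 2 was higher than library 1 for 30 of 33 members (90.9%), against 50.2% of all genes tested, and was the highest of the 4 libraries for 22 members (66.7%), against 30.2%. The exceptions were Atf3, Aldh1l2 and Slc7a11. Library 1 was the lowest library for 4 of 7 stress factors and 4 of 6 effectors, against 24.7% of all genes, and for 0 of the 7 one-carbon enzymes. Library 2 also had the fewest reads, the highest shares of mitochondrial and multiply aligned reads and the abundant Xist. The part of these in the difference between the knockout-labelled libraries was not tested. With scaling by library totals alone, 24 of 33 members (72.7%) were higher in library 2 than in library 1, against 38.1% of all genes.

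**Figure D5:**
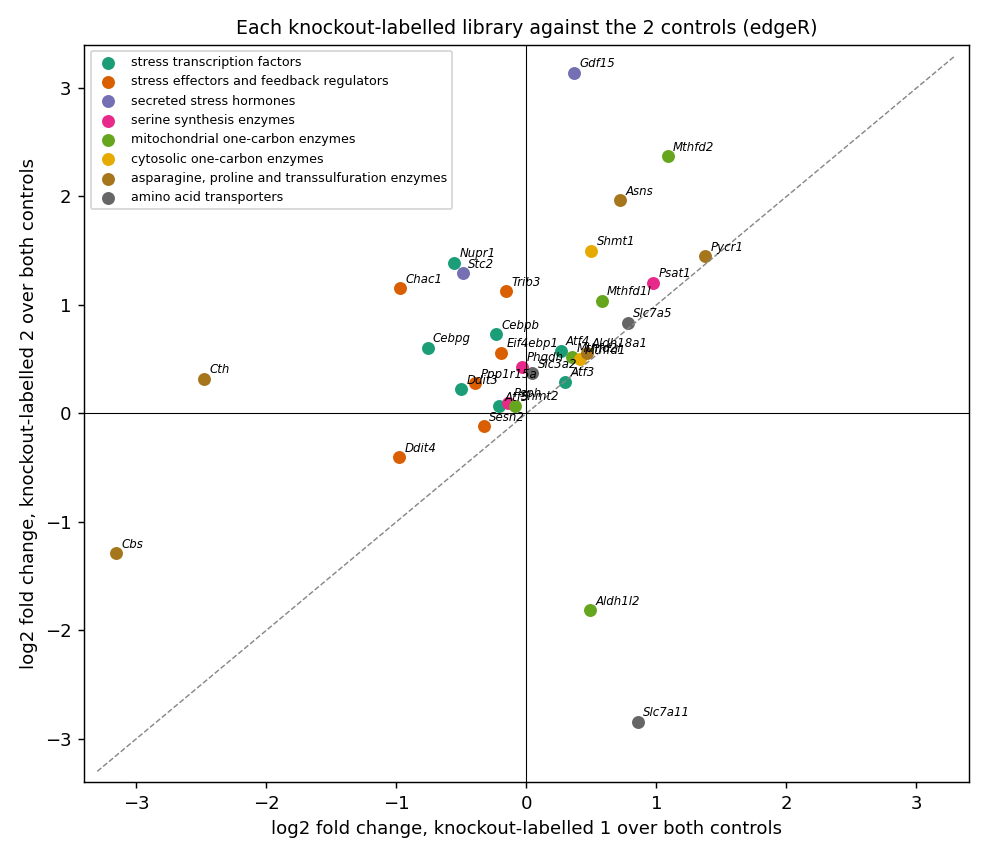
edgeR log2 fold change of knockout-labelled library 1 (horizontal) and library 2 (vertical), each against both controls, for the 33 tested members; the dashed line marks equal values. Both axes share the 2 control libraries, Psat1, Pycr1 and Slc7a5 lie near the line, and most stress factors and effectors lie above it, several left of 0 and above 0.

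Genes that act around the members were described from 7 further lists, in which edgeR called 0 genes. The shares over all genes to read their counts against are 5.58% higher and 4.43% lower with DESeq2, and 26.5% above and 29.7% below both controls. Among 14 genes of the eIF2 kinases and the eIF2 and eIF2B complexes, DESeq2 called 2 higher and 0 lower. Eif2s1, the α subunit that the kinases phosphorylate, had the smallest edgeR p and was at 48.6 and 52.9 CPM in the controls against 79.7 and 86.0 CPM in the knockout-labelled pair (log2 fold change 0.71 ± 0.15, adjusted p = 0.0948 with edgeR). The groups did not overlap. Eif2ak3, the kinase of the endoplasmic reticulum, was at 19.3 and 19.2 CPM against 18.5 and 18.7 CPM, just below both controls. Eif2ak4, another of the kinases, was also below both, at 37.3 and 33.1 CPM against 29.0 and 28.2 CPM. Eif2ak1 and Eif2ak2 overlapped between groups.

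Of 11 genes that relay mitochondrial stress or fold proteins there, 8 had both knockout-labelled libraries above both controls, and DESeq2 called 4 higher and 0 lower. Hspd1, the mitochondrial chaperonin HSP60, was at 305 and 275 CPM in the controls against 539 and 542 CPM in the knockout-labelled pair, a log2 fold change of 0.90 ± 0.19 (adjusted p = 0.0937 with edgeR). Opa1, the fusion protein of the inner membrane, and Yme1l1, a protease that cleaves it, both picked with their values known, were at 148 and 145 CPM against 257 and 200.4 CPM and at 51.7 and 69.3 CPM against 91.2 and 82.5 CPM. DESeq2 called Opa1 higher and not Yme1l1. The relay from mitochondria to the eIF2 kinases overlapped between groups. Oma1, the stress protease, was at 21.8 and 18.5 CPM against 21.7 and 21.3 CPM, and Dele1, the messenger to eIF2 kinases, at 105 and 92.5 CPM against 97.8 and 101 CPM.

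The unfolded protein response of the endoplasmic reticulum did not share this direction, with a median of -0.03 over 15 genes and 0 called higher and 1 lower by DESeq2. The called gene was Ern1, the sensor IRE1α, at 24.0 and 23.6 CPM against 13.7 and 12.6 CPM (log2 fold change -0.85 ± 0.19, adjusted p = 0.0948 with edgeR). Of 12 AP-1, C/EBP and ATF partners, DESeq2 called 0 higher and 1 lower, namely Jun, at 120 and 127 CPM against 80.0 and 81.9 CPM (log2 fold change -0.61 ± 0.16, adjusted p = 0.113 with edgeR).

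Among 12 cytosolic aminoacyl-tRNA synthetases known as ATF4 targets, 9 had both knockout-labelled libraries above both controls, and DESeq2 called 1 higher, a share near the background, and 0 lower. That gene was Gars, the glycyl-tRNA synthetase, at 99.7 and 91.4 CPM against 155 and 210 CPM (log2 fold change 0.93 ± 0.21, adjusted p = 0.0970 with edgeR). Of 8 other amino acid transporters, DESeq2 called 0, and Slc3a1 had the smallest edgeR p, at 0.493 and 0.368 CPM against 0.113 and 0.135 CPM.

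Among 20 folate, glycine cleavage and nucleotide synthesis genes, DESeq2 called 4 higher and 1 lower. Dld, the dihydrolipoamide dehydrogenase shared by glycine cleavage and pyruvate dehydrogenase, had the smallest edgeR p, at 236 and 247 CPM against 466 and 478 CPM (log2 fold change 0.97 ± 0.18, adjusted p = 0.0925 with edgeR). Tyms, the thymidylate synthase, which was chosen after its values were seen, was at 9.03 and 9.48 CPM against 18.1 and 19.9 CPM. Pfas, an enzyme of purine synthesis also chosen after its values were seen, was the gene called lower, at 39.0 and 38.1 CPM against 22.4 and 20.1 CPM.

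Per length, and averaged over the 4 libraries, the members spanned from 114 RPKM for Eif4ebp1, 55.1 for Atf4 and 46.1 for Ddit4 to 0.119 for Cth and 0.0864 for Cbs. Atf4 was above Ddit4 in 3 of the 4 libraries and below it in control 1. Below them came Shmt2 at 21.9 and Ppp1r15a at 13.4 RPKM, followed by Atf5, Slc3a2 and Ddit3 at 12.9, 12.6 and 11.8 RPKM, whose ranges over the libraries overlapped. Of the members that DESeq2 called, Shmt1, Psat1 and Slc7a5 ranked 9, 14 and 16 in this order, and Mthfd2, Gdf15 and Pycr1 were among the 10 lowest.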

How the data were processed

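The submitters' processing notes name GRCm38 as the build, STAR 2.5.3a, HTSeq 0.6.1 and DESeq2 1.18, and the labels describe stranded Kapa libraries. The strand setting of the counting and the annotation release were not given in the sources used. The deposited counts are whole reads per gene with no scaling, and the series table repeats them. It also holds the authors' deposited log2 fold changes and adjusted p-values, and 4 further columns of normalized values per sample were not used.

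Identifiers of 53360 of 53465 genes were found in GENCODE vM21 (GRCm38), the source of symbols, positions and the exon lengths behind RPKM. The 5 HTSeq summary categories stayed out of library sizes and tests. The counts went into edgeR 4.0.16 (R 4.3.3), with filterByExpr at its defaults (18157 genes), TMM scaling and the quasi-likelihood test without covariates. Adjusted p-values are Benjamini-Hochberg values over all of these genes, and 0.05 was the threshold. DESeq2 1.42.0 and limma 3.58.1 were used in alternatives. The edgeR and DESeq2 steps were tested on simulated data. A count of 0 allows up to 0.0657 to 0.0882 CPM (3 reads of the unscaled total), for counting error only.

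The members and lists were chosen with earlier results of these data known. Named genes were the members, Ctnnb1, the gene with the smallest p of each further list, and others said to be chosen after their values were seen or named for their role or as the single call of their list. Alternatives were other scalings (DESeq2's size factors in edgeR, library totals), no filter, DESeq2, limma-voom, a replicate block, GC and length trends, and leaving out each library. DESeq2 without each library and the crossed block were chosen after seeing the data. Libraries of the same replicate number did not deviate together (correlation of deviations from the group means -0.134), so no pairing was assumed.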

Additional observations from a re-analysis of the deposited data

How the results depend on the processing

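edgeR called 0 members in either direction with other scalings, limma-voom, GC and length trends removed, and without any 1 library. The replicate block also gave 0 members higher and 0 lower (9 and 9 of all genes), and with replicate numbers crossed, a pairing added after seeing the data, edgeR called 3 members higher (501 higher and 440 lower of all genes). With no low-count filter edgeR called 1 higher (Psat1, adjusted p = 0.0352), at an adjusted p under 0.1 it called 2, and DESeq2 called 7, with 0 to 7 higher and 0 to 1 lower when each library was left out. Without each library in turn, median log2 fold changes ran from -0.036 to 0.56 for all members, -0.23 to 0.58 for stress factors, -0.36 to 0.42 for effectors, -0.062 to 2.22 for hormones, -0.036 to 0.94 for serine synthesis, 0.39 to 0.52 for mitochondrial one-carbon enzymes, 0.42 to 1.37 for asparagine, proline and transsulfuration and 0.0061 to 1.03 for transporters. Library totals alone shifted the median of all genes from -0.02 to -0.26. They gave medians of -0.19 for effectors, -0.068 for serine synthesis, 0.16 for mitochondrial one-carbon enzymes, 0.24 for asparagine, proline and transsulfuration and -0.062 for transporters, with 11 members above both controls and 5 below (2772 and 8139 of all genes). limma-voom gave -0.049 for effectors. With GC and length trends removed, mitochondrial one-carbon enzymes were at 0.34 and asparagine, proline and transsulfuration at 0.72 (0.72 also with the replicate block, where serine synthesis was at 0.58).

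Directions held under every alternative for 14 of 33 members. Library totals alone gave Cebpg -0.24, Eif4ebp1 -0.065, Phgdh -0.068 and Slc3a2 -0.062. With GC and length trends removed, without and with the replicate block, values were 0.22 and 0.22 for Atf5, 0.16 and 0.17 for Sesn2, 0.24 and 0.22 for Ppp1r15a, 0.084 and 0.084 for Psph and 0.34 and 0.35 for Shmt2, and Cebpg was at -0.14 with both. The replicate block alone gave Cebpg -0.11 and Slc7a11 0.013, and limma-voom gave -0.17 and 0.22. Without each library in turn, the ranges were -0.21 to 0.068 for Atf5, -0.50 to 0.22 for Ddit3, -0.23 to 0.73 for Cebpb, -0.76 to 0.61 for Cebpg, -0.55 to 1.39 for Nupr1, -0.16 to 1.13 for Trib3, -0.97 to 1.153 for Chac1, -1.29 to 0.35 for Ddit4, -0.20 to 0.56 for Eif4ebp1 and -0.40 to 0.28 for Ppp1r15a. They were -0.49 to 1.29 for Stc2, -0.31 to 0.94 for Phgdh, -0.14 to 0.10 for Psph, -0.30 to 0.29 for Shmt2, -1.81 to 0.49 for Aldh1l2, -2.48 to 2.004 for Cth and -2.84 to 3.002 for Slc7a11. The cause was not tested for these. Depth limits Fgf21, Cth, Cbs and Chac1, which had fewer than 100 reads in each library.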

Other observations

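The replicate split of Slc7a11 was rare. Over all genes, 2 had both first replicates over 5 times both second replicates with CPM above 0.5, and 1 gene showed the reverse. The 2 were Slc7a11 and the pseudogene Gm14150, which is similar to part of the Slc7a11 transcript and is not shown to derive from it.

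In knockout-labelled library 2, 32 genes with CPM above 5 there were over 3 times their level in each other library, 29 of them protein-coding. Besides Gdf15 they included Nppb, the natriuretic peptide gene of strained ventricle, at 164 and 161 CPM in the controls, 233 CPM in knockout-labelled library 1 and 2288 CPM in library 2. Ankrd1, a stretch-responsive sarcomere protein, was at 625 and 1583 CPM against 1144 and 5060 CPM, and Edn1, the vasoconstrictor endothelin, at 10.2 and 11.8 CPM against 15.8 and 50.9 CPM.

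In the opposite direction, 39 genes, 34 of them protein-coding, were over 3 times lower in that library than in each other. Besides Aldh1l2 they included Myh7, the fetal ventricular myosin, at 8657 and 4969 CPM in the controls and 4979 and 1128 CPM in the knockout-labelled libraries, and the pacemaker channel Hcn4, at 8.21 and 15.2 CPM against 12.3 and 1.86 CPM. These names were picked with their values known and describe 1 library, not the knockout-labelled group.

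In control 1, 341 genes were over 5 times their level in each other library, and Fgf21 was among them. With the T cell genes this set held genes known from thymic epithelium, among them Prss16 at 1157 reads against 2 to 4, Pax1 at 445 reads against 0 to 1 and Aire at 332 reads against 6 to 10.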
